A study of Mus musculus with 8 samples.

Results

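mmu-miR-219a-5p, mmu-miR-219a-2-3p, mmu-miR-338-3p and mmu-miR-338-5p are guide strands that are abundant in oligodendrocytes, the cells that wrap axons in myelin. They were chosen by name and are 4 of the 895 miRNA names found among the RISC-bound small RNAs (R-sRNAs) of these mouse brains. All reads carrying exactly 1 of these names were summed, which gave 312 of the 26201 distinct miRNA read sequences, with 80 for miR-219a-5p, 73 for miR-219a-2-3p, 115 for miR-338-3p and 44 for miR-338-5p. The question was how the arms of each hairpin compare, whether the members rise and fall together over the libraries as a gauge of myelinating cells would, and whether they differ between genotypes.

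The libraries came from cortex and hippocampus of 8 female mice on a mixed C57BL/6J/SJL background, each library from another mouse. All mice carried the 5XFAD transgene, which is driven by a neuronal promoter and models amyloid deposition. The het group (5XFADtg/Rubicon het, 4 libraries) kept 1 copy of Rubicon, whose protein is a brake on autophagosome maturation, and the ko group (5XFADtg/Rubicon ko, 4 libraries) had none. There were no mice without the transgene or with both Rubicon copies among these libraries. The study's Results describe the compared groups as age-matched and of 1 age, whereas its Methods name more than 1 age. The labels give no age for a single mouse. Argonaute proteins were pulled down with a GW182 peptide, so a level here is the share of a guide strand among RISC-bound reads, in reads per 1000000 reads (CPM), and not its amount in the tissue. Rubicon mRNA is not measured in such libraries, so the genotype could not be checked from the reads.

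In the oligodendrocyte lineage, miR-219 and miR-338 rise as precursor cells leave the cell cycle and differentiate, and they repress mRNAs that keep precursors dividing, among them those of the growth factor receptor PDGFRA and of the transcription factors SOX6 and HES5. A hairpin can give a guide from its 5′ arm (5p) and another from its 3′ arm (3p). The arms have different seeds, the bases near the 5′ end that pair with target mRNAs, and so have different targets. miR-338 is also known from neurons, since its hairpin lies in an intron of the neuronal kinase gene Aatk.

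The guides are shown first because every comparison turns on which arm, and which end of it, a read comes from. Mature sequences are those of RefSeq with GRCm38.p6 positions, written 5′ to 3′, with the seed (positions 2 to 8) in capitals. For miR-219a-2-3p the most abundant deposited read is shown instead, written with T as in the reads. None of the 4 seeds is shared with another member.
miR-219a-5p: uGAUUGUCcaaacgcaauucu
miR-219a-2-3p: aGAATTGTggctggacatctgt
miR-338-3p: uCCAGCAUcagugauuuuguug
miR-338-5p: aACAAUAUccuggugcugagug

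The hairpins follow in the same direction, with the strands of the arms in capitals. They show that miR-219a-5p can come from either of the miR-219a genes, whereas miR-219a-2-3p can come only from Mir219a-2, and that both miR-338 arms share 1 hairpin. For Mir219a-2 and Mir338 the capitals mark the most abundant read of each arm, and for Mir219a-1 the stretch of the mature miR-219a-5p.
Mir219a-2: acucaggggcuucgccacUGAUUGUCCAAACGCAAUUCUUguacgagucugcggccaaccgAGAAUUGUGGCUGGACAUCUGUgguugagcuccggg
Mir219a-1: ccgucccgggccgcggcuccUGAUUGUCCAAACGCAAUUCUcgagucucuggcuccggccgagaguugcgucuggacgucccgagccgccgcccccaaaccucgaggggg
Mir338: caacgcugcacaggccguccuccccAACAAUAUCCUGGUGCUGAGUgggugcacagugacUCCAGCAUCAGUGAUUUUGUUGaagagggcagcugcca

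Mir219a-2 lies at chr2:29845631-29845727 on the minus strand, with the mature miR-219a-5p at chr2:29845689-29845709 and the printed miR-219a-2-3p read at chr2:29845645-29845666, opposite to the annotated Mir219b on the plus strand. Mir219a-1 lies at chr17:34024983-34025092 on the minus strand, where it overlaps an exon of the lincRNA Gm26940, and Mir219c is annotated on the other strand. Mir338 lies at chr11:120014765-120014862 on the minus strand, inside Aatk on the same strand and in no annotated exon of it, so it is intronic, and Mir3065 runs on the plus strand of the same place. miR-219b, miR-219c and miR-3065 are not analysed here.

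Of the 4 miRNAs, miR-338-3p was the most abundant, followed by miR-219a-5p, miR-219a-2-3p and miR-338-5p. Over the 8 libraries miR-338-3p ranged from 3052 to 8128 CPM, miR-219a-5p from 1064 to 7822 CPM, miR-219a-2-3p from 950 to 1787 CPM and miR-338-5p from 380 to 668 CPM. By mean level miR-338-3p, miR-219a-5p and miR-219a-2-3p ranked 44th, 53rd and 88th among the 895 names. The neighbours at the top of this order were not cleanly apart, since miR-338-3p exceeded miR-219a-5p in 7 of 8 libraries and miR-219a-5p exceeded miR-219a-2-3p in 7 of 8. By contrast, miR-338-5p was the lowest member in every library. The guides are of nearly the same length and each is read whole, so the levels were not scaled by length, but how well each sequence is ligated and amplified was not measured. Together the members made up 0.662% to 1.61% of a library, while neuronal miRNAs (miR-124-3p, miR-128-3p, miR-9-5p and miR-9-3p) summed to between 158779 and 265976 CPM.

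Depth ran from 509839 to 19878054 reads per library, and the deepest pair, ko libraries 1 and 2, exceeded 5000000 reads. The members had many reads everywhere: relative to its value, the widest 95% Wilson interval was that of miR-338-5p in het library 1, with 281 reads and 483 to 610 CPM around 542 CPM, and it covers counting error only. Over the 463 miRNAs tested the median coefficient of variation over libraries was 34.2%. miR-219a-5p stood above it with 63.4%, miR-338-3p was near it with 31.6%, and miR-219a-2-3p and miR-338-5p were below it with 21.2% and 18.0%.

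miR-219a-5p, the 5′ arm guide, had the largest difference between genotypes of the 4, and it did not pass the test. In het libraries 1 to 4 its level was 2655, 7822, 3492 and 3639 CPM, and in ko libraries 1 to 4 it was 1470, 3030, 1064 and 2790 CPM. All ko libraries lay below the het mean, but the groups overlapped, since ko libraries 2 and 4 were above het library 1. Its mean was 4402 ± 2321 CPM in the het and 2089 ± 968 CPM in the ko libraries (SD, n = 4 each). With limma on log2(CPM + 1), the log2 fold change (ko minus het) was −1.08 (SE 0.40, 95% interval −1.94 to −0.22), and the Benjamini-Hochberg adjusted p over 463 miRNAs was 0.495.

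The high value of het library 2 came from 1 read. The 22-nt form of miR-219a-5p, which is the mature sequence plus 1 further U, was at 5437 CPM there and at 533 to 1554 CPM in the other 7 libraries, and it made up 69.5% of miR-219a-5p in het library 2. Leaving out that read gave 2126 ± 293 CPM for the het and 1189 ± 579 CPM for the ko libraries, and het library 2 (2384 CPM) was close to het libraries 3 and 4 (2194 and 2219 CPM). The log2 fold change without it was −0.98 (SE 0.36, limma adjusted p = 0.503). The lower mean of the ko libraries thus did not depend on this read, and ko library 4 (1828 CPM) still lay above het library 1 (1705 CPM).

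miR-219a-2-3p, from the other arm of Mir219a-2, did not share this pattern. Its level was 1446, 1070, 1380 and 1018 CPM in het libraries 1 to 4 and 1362, 1344, 1787 and 950 CPM in ko libraries 1 to 4. The highest and the lowest library were both ko, and the other ko libraries lay within the het range. Het libraries averaged 1228 ± 216 CPM and ko libraries 1361 ± 342 CPM, for a log2 fold change of 0.13 (SE 0.27, 95% interval −0.46 to 0.71, limma adjusted p = 0.975).

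For miR-338-3p, the main guide of its hairpin, the level was 8128, 6563, 4601 and 5226 CPM in het libraries 1 to 4. In ko libraries 1 to 4 it was 5565, 5561, 3296 and 3052 CPM. Ko libraries 3 and 4 fell below every het library, while ko libraries 1 and 2, the deep ones, lay within the het range. On average het libraries had 6129 ± 1563 CPM and ko libraries 4369 ± 1383 CPM, a log2 fold change of −0.51 (SE 0.29, 95% interval −1.13 to 0.11, limma adjusted p = 0.754). Without ko libraries 1 and 2 the log2 fold change was −0.92, and after removal of each library's trend with GC content it was −0.28, and neither passed the test.

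miR-338-5p, its partner arm, was at 542, 668, 586 and 488 CPM in het libraries 1 to 4 and at 585, 434, 474 and 380 CPM in ko libraries 1 to 4. The groups overlapped, and ko library 1 was level with het library 3. Mean levels were 571 ± 75.9 CPM (het) and 468 ± 86.8 CPM (ko), and the log2 fold change was −0.29 (SE 0.24, 95% interval −0.81 to 0.22, limma adjusted p = 0.940).

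**Figure D1:**
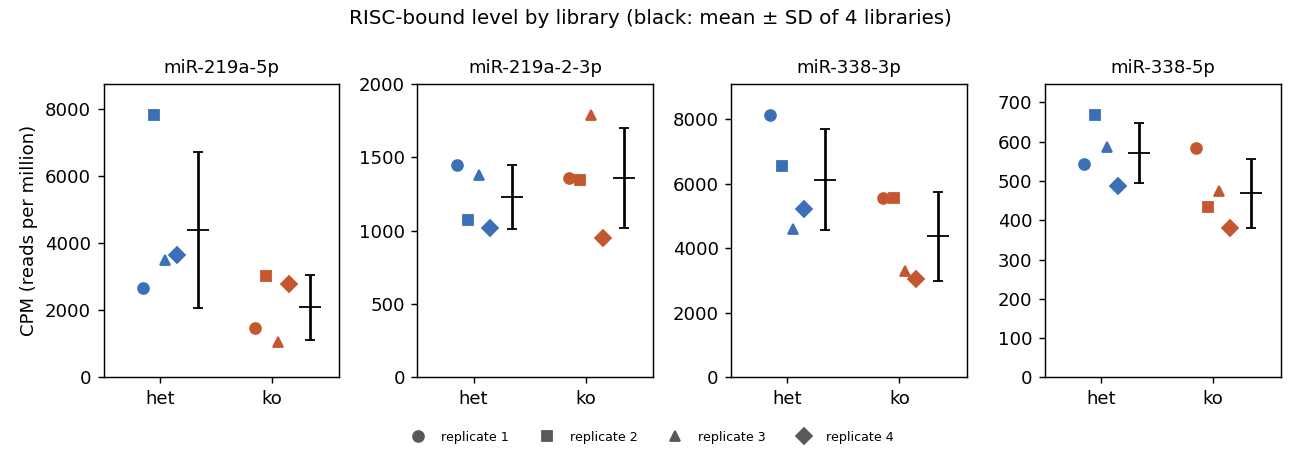
RISC-bound level (CPM, linear axis from 0) of each member in the 4 het (blue) and 4 ko (orange) libraries, with marker shapes for the replicate numbers and the mean ± SD in black. For miR-219a-5p het library 2 stands alone at 7822 CPM, and for all 4 miRNAs the genotypes overlap.

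Thus 0 of 4 members passed the adjusted test, where 1.3% of all 463 miRNAs did, and 1 of 4 (miR-219a-5p) had an unadjusted p under 0.05, where 7.34% did. None of the 4 had het and ko libraries that did not overlap, against 3.46% of all miRNAs. The median log2 fold change of the members was −0.40 and that of all miRNAs −0.09, with 3 of 4 members lower in ko. When every library was centred at its own median, the median of all miRNAs moved to 0.13, and the members then had log2 fold changes of −0.86 for miR-219a-5p, 0.35 for miR-219a-2-3p, −0.29 for miR-338-3p and −0.07 for miR-338-5p. Summed, the members reached 10059 to 16122 CPM per het library and 6622 to 10369 CPM per ko library, so that the highest ko library lay above het library 3. In whole tissue, fewer cells of a type and less RNA per cell cannot be told apart, and here neither can be told from less loading into the RISC.

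Markers of other cell types were followed beside the members. Red cell miRNAs (miR-451a and miR-144-3p) summed to 1724 to 3126 CPM per het library and 701 to 2220 CPM per ko library, and 0 of 2 were called. A list of 5 miRNAs of epithelia and sensory cells held miR-200a-3p, miR-200b-3p, miR-429-3p, miR-182-5p and miR-183-5p. They summed to 4227 ± 2227 CPM (het) and 426 ± 289 CPM (ko). All 5 were called lower in ko, where 6 of all 463 miRNAs (1.3%) were called. The lists were chosen with earlier results of these data known, so this contrast describes the data and tests nothing. Neuronal miRNAs came to 182249 ± 21171 CPM for het and 209650 ± 44038 CPM for ko libraries, with 0 of 4 called, and the 3 miRNAs of microglia and blood cells summed to 567 to 779 CPM per het and 392 to 693 CPM per ko library. The summed means of het and ko libraries were 8530 ± 2836 and 8068 ± 2685 CPM for endothelium, 5408 ± 661 and 4718 ± 1005 CPM for smooth muscle, 3397 ± 957 and 3145 ± 983 CPM for choroid plexus and 262 ± 50.5 and 225 ± 106 CPM for striated muscle. None of the miRNAs of these lists was called, and the liver miRNA miR-122-5p was at 8.82 to 22.3 CPM in every library. The part of these in the members' levels was not tested.

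The balance between the arms of miR-219a varied widely between libraries. The ratio of miR-219a-5p to miR-219a-2-3p was 1.84, 7.31, 2.53 and 3.58 in het libraries 1 to 4 and 1.08, 2.25, 0.595 and 2.94 in ko libraries 1 to 4. Ko library 3 was the only library with more of the 3p than of the 5p strand. On the log2 scale the ratio was 1.73 ± 0.854 in het and 0.52 ± 1.04 in ko, a difference of −1.21 (exact two-sided permutation test over 70 splits, p = 0.171, adjusted over 3 ratios 0.457), and all 4 ko libraries lay below the het mean. With each library's GC trend removed the difference was −1.16, and leaving out each library in turn gave −1.55 to −0.79. As the smallest p of this design is 0.0286, a single ratio could not pass after adjustment over 3.

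In the miR-338 hairpin the 3p strand led in every library, by 6.95 to 15.0 times. The log2 ratio of miR-338-3p to miR-338-5p was 3.40 ± 0.386 in het and 3.18 ± 0.379 in ko, which differed by −0.22 (exact permutation p = 0.457, adjusted 0.457). This difference was −0.05 without het library 1, −0.09 without ko library 3 and −0.50 without the deep ko libraries 1 and 2. Between the families, miR-219a-5p was 0.264 to 1.19 times as abundant as miR-338-3p, and het library 2 was the only library in which it was the higher. This log2 ratio was −0.57 ± 0.775 in het and −1.14 ± 0.804 in ko, a difference of −0.57 (exact permutation p = 0.314, adjusted 0.457), which ranged from −0.92 to −0.29 when each library was left out in turn.

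**Figure D2:**
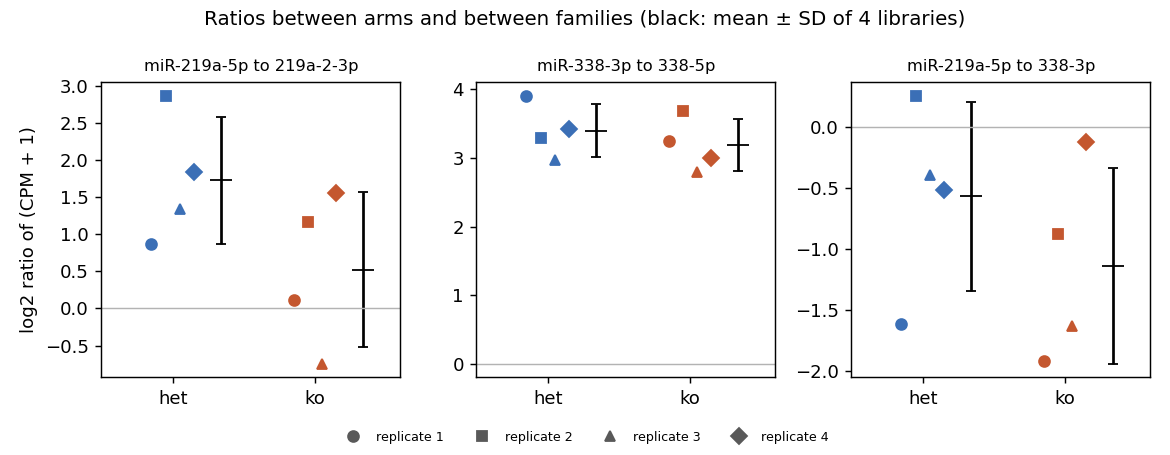
Log2 ratios of the levels (CPM + 1) between the arms of miR-219a, the arms of miR-338 and the 5p and 3p guides of the families, by library, with marker shapes for replicate numbers and the mean ± SD of 4 libraries in black. The miR-219a arm ratio spans −0.75 to 2.87 and overlaps between het and ko, whereas the miR-338 arm ratio stays between 2.79 and 3.90.

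As a gauge of myelinating cells the 4 miRNAs should rise and fall together over the 8 libraries, and the measured relations between them were of both signs. Of the 6 pairs, 0 passed the test (exact permutation tests of Pearson's r over log2(CPM + 1), adjusted over 6 pairs). The arms of miR-219a ran in opposite directions, with r = −0.67 (exact permutation p = 0.0659, adjusted 0.299) and Spearman's rho −0.60 (exact permutation p = 0.132). Without het library 2 and ko library 3, the farthest from the median of miR-219a-5p, r was −0.31. Leaving out ko library 3 alone gave −0.43 and leaving out het library 2 alone −0.65. With the genotype means removed it was −0.71.

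The arms of miR-338 had a positive correlation that did not pass the test. Here r was 0.62 (exact permutation p = 0.0995, adjusted 0.299) and rho 0.57 (exact permutation p = 0.151), falling to r = 0.17 without ko libraries 3 and 4 and to 0.43 with the genotype means removed. Between the families all 4 correlations were positive over the 8 libraries, and none passed. miR-219a-5p and miR-338-3p had r = 0.43 (rho 0.17, exact permutation p = 0.291 and 0.703), which was −0.17 without het library 2 and ko library 3 and 0.07 with the genotype means removed. For miR-219a-5p and miR-338-5p r was 0.34 and rho 0.38, with exact permutation p-values of 0.411 and 0.360, and r was −0.31 without het library 2 and ko library 3. miR-219a-2-3p had r = 0.03 with miR-338-3p (rho 0.19, exact permutation p = 0.939 and 0.665) and 0.16 with miR-338-5p (rho 0.24, exact permutation p = 0.703 and 0.582), and without het and ko libraries 4 these were −0.63 and −0.64. Adjusted over the pairs, the p-values of the cross-family relations were 0.582 or more for r and 0.703 for rho.

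**Figure D3:**
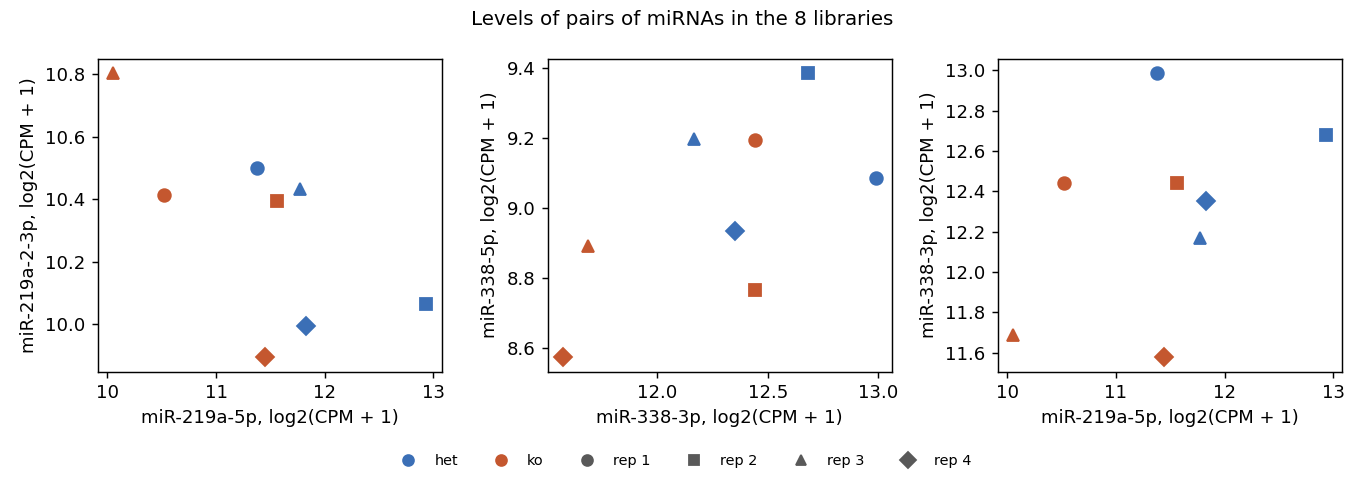
Levels in the 8 libraries, as log2(CPM + 1), of miR-219a-5p against miR-219a-2-3p, miR-338-3p against miR-338-5p and miR-219a-5p against miR-338-3p, with het in blue, ko in orange and marker shapes for replicate numbers. The miR-219a arms run in opposite directions (r = −0.67), the miR-338 arms in the same direction (r = 0.62), and neither relation passed the exact permutation test.

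The libraries also differed in the base composition of what was recovered. Across 463 miRNAs the rank correlation between GC content and the deviation of a miRNA from its mean was −0.45 in ko library 2, 0.34 in het library 4 and 0.53 in ko library 3, and between −0.27 and 0.07 in the other 5 libraries, as a description, since miRNAs of a library are not independent. The most abundant reads of the members hold 36.4% GC (miR-219a-5p), 45.5% (miR-219a-2-3p), 40.9% (miR-338-3p) and 42.9% (miR-338-5p), against a median of 47.6%. Ko library 3, with relatively more GC-rich miRNAs, had the least miR-219a-5p and the most miR-219a-2-3p. The GC trend of each library was then removed, a step chosen after seeing the data. After it the correlation of the miR-219a arms was −0.88 (exact permutation test, adjusted p = 0.0299), the only 1 of 6 pairs to pass. That of the miR-338 arms was 0.29. Without this step the adjusted p of the miR-219a arms was 0.299 by the same test, and they passed in no planned setting.

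The miRNAs that followed each member most closely were picked as the 3 with the highest Pearson r over the 8 libraries among 459 miRNAs, and these values are descriptions from shared libraries. For miR-219a-5p they were miR-101a-5p (r = 0.95), miR-3106-5p (0.92) and miR-451a (0.90), of which miR-451a is the main miRNA of red cells. miR-219a-2-3p was followed by miR-193b-3p (0.91), miR-151-5p (0.81) and miR-128-1-5p (0.76). For miR-338-3p they were reads shared by miR-199a-3p and miR-199b-3p (0.86), miR-214-3p (0.85), which like them is known from mesenchymal cells, and miR-27b-3p (0.84). let-7f-1-3p (0.90), miR-383-3p (0.88) and miR-496a-3p (0.87) were nearest to miR-338-5p. The members themselves were left out of these 459. Over the 459, the rank correlation of GC content with likeness was −0.38 for miR-219a-5p and −0.41 for miR-338-3p. It was 0.13 for miR-219a-2-3p and −0.23 for miR-338-5p. miR-451a holds 34.8% GC and miR-214-3p 59.1%. The part of GC content or of cell type in these likenesses was not tested. Among 462 other miRNAs, miR-338-3p stood 26th in likeness to miR-338-5p, whereas miR-219a-2-3p stood 438th in likeness to miR-219a-5p.

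Which gene gave miR-219a-5p can be read from reads that run past the part that both hairpins share. The 2 forms below are 23 nt long and are shown because their last bases, in capitals, differ between the genes.
Mir219a-2 read: tgattgtccaaacgcaattctTG
Mir219a-1 read: tgattgtccaaacgcaattctCG
The Mir219a-2 read was at 567 ± 308 CPM and the Mir219a-1 read at 28.4 ± 19.8 CPM over the 8 libraries (SD, n = 8). Counting all reads that extend at least 2 bases past the shared part, Mir219a-2 gave 94.8%, 95.7%, 98.4% and 88.5% of them in het libraries 1 to 4 and 99.2%, 98.5%, 89.8% and 86.2% in ko libraries 1 to 4. The share of Mir219a-2 among these extended reads was 94.4% ± 4.18 in het and 93.4% ± 6.43 in ko. Such reads were on average 20.5% (Mir219a-2) and 0.972% (Mir219a-1) of miR-219a-5p, and whether both genes give extended reads equally often was not tested. Shorter reads, which are 29.9% of miR-219a-5p, match both hairpins exactly and cannot be assigned, and the 22-nt read with 1 added U matches Mir219a-2 but may also be a Mir219a-1 read with an untemplated U.

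The 3p arm bears on the same question. miR-219a-1-3p, which only Mir219a-1 can give, was between 0 and 3.92 CPM, and its 3′ strand was thus nearly undetected in these RISC pulldowns. Unnamed reads that matched a member hairpin came to 1.36% of the members' total.

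The 5′ ends were nearly fixed and the 3′ ends were not. Reads with another seed than the main one made up 2.62% ± 1.18 of miR-219a-5p in het and 3.19% ± 0.875 in ko, 3.73% ± 0.853 and 3.94% ± 0.613 of miR-219a-2-3p, and 3.25% ± 1.04 and 3.02% ± 1.07 of miR-338-3p. miR-338-5p was the loosest, with 13.8% ± 4.53 in het and 13.0% ± 2.98 in ko. None of the 8 isoform measures (this share and the mean read length of each member) passed an exact permutation test between genotypes, with adjusted p-values of 0.849 or more. The smallest p that 70 splits allow is 0.0286, so a single measure could not pass after adjustment over 8, and no likeness of the genotypes can be read from this.

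At the 3′ end, counted over reads with the usual 5′ end, each guide had its own form. miR-219a-2-3p had 75.4% ± 3.18 of reads ending at its main position, and 10.8% ± 1.98 carrying an untemplated tail. Its main position is the end of its most abundant read in these data, so this share cannot be set against those at the RefSeq ends of the other members. miR-338-5p was mostly 1 base or more shorter than its RefSeq form, at 83.0% ± 3.60. Longer reads that follow the hairpin were 44.4% of miR-219a-5p in ko library 4, where more reads ended at the RefSeq form, and 55.5% to 81.9% in the other libraries. miR-338-3p varied most, with templated longer reads at 28.3%, 11.6%, 20.3% and 37.8% in het libraries 1 to 4 and 6.74%, 8.93%, 24.6% and 61.5% in ko libraries 1 to 4.

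Het library 4 and ko library 4 stood out together at both guides. They had the most miR-338-3p that was longer than its RefSeq form and the most miR-219a-5p that ended exactly at its RefSeq form, 39.0% and 50.5% against 14.3% to 25.8% elsewhere. The labels do not say whether libraries of the same number were prepared together. The genotypes did not part by these measures, since 1 library of each was at the extreme.

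**Figure D4:**
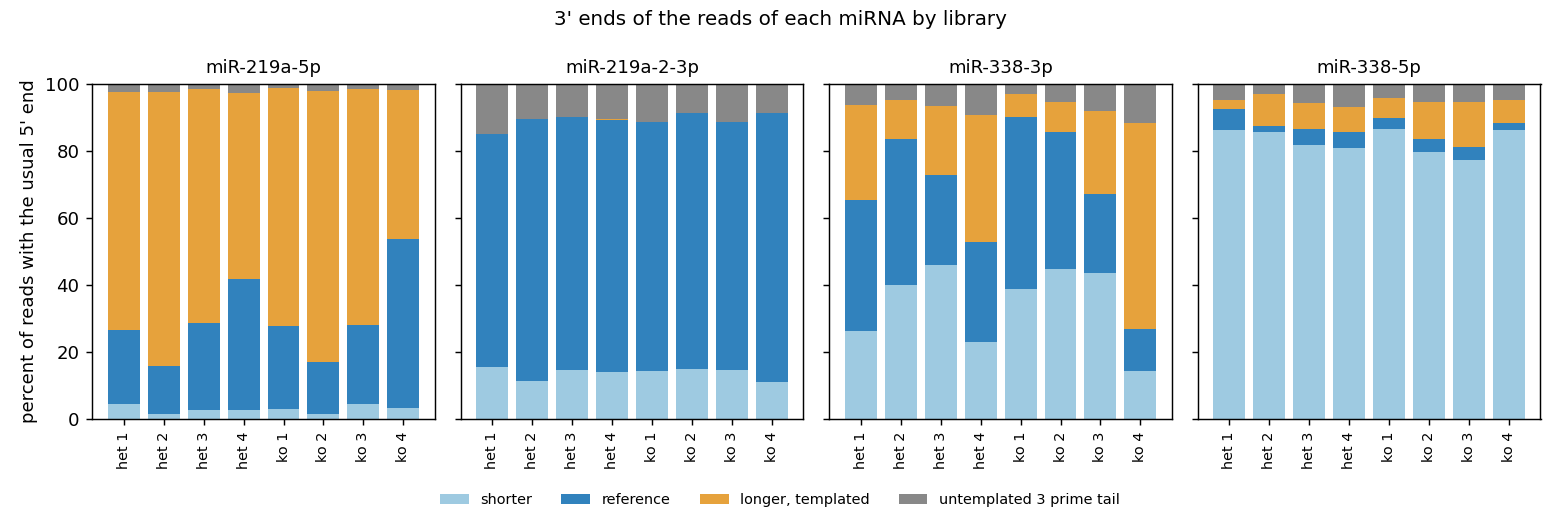
Share of reads (percent of reads with the usual 5′ end) that are shorter than, end at, run past or carry an untemplated tail on the reference 3′ end, by member and library. For miR-338-3p the share of longer templated reads is highest in ko library 4 (61.5%) and lowest in ko library 1 (6.74%). miR-219a-2-3p keeps a share of 69.6% to 80.5% at its reference end. That end is the one of its most abundant read here, whereas the other members have a RefSeq end.

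Of the single reads of the members, 38 had a mean of at least 10 CPM and were tested, with 12 of miR-219a-5p, 6 of miR-219a-2-3p, 14 of miR-338-3p and 6 of miR-338-5p. None was called (limma, adjusted over 3299 reads), where 0.485% of all reads were. By unadjusted p under 0.05, 8 of the 38 were lower in ko and 0 higher, where 5.3% of all reads passed in either direction, and 7 of the 8 were forms of miR-219a-5p, which are not independent of each other. The 12 tested forms of miR-219a-5p were all lower in ko, with a median log2 fold change of −1.17, against −0.02 over all reads. Without the deep ko libraries 1 and 2 a single member read was called, the 23-nt Mir219a-2 read printed above, with a log2 fold change of −2.13 (limma adjusted p = 0.0283), where 0.267% of all reads were called. With all libraries its log2 fold change was −1.19 (limma adjusted p = 0.776).

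The 6mer seeds (positions 2 to 7) were supplied almost only by the members themselves. GAUUGU came to 98.8% from miR-219a-5p, GAAUUG to 99.0% from miR-219a-2-3p, CCAGCA to 99.1% from miR-338-3p and ACAAUA to 98.2% from miR-338-5p. No other named miRNA put more than 2.65 CPM into any of them. The seed viability scores, the authors' mean viability of 3 mouse cell lines given an siRNA with that seed, were 88.5 for miR-219a-5p, 78.7 for miR-338-5p, 71.4 for miR-338-3p and 65.1 for miR-219a-2-3p. A low score marks a toxic seed. The most abundant read of miR-219a-5p with another seed starts 1 base later, reaches 23.4 ± 18.6 CPM and has a score of 58.3.

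Beside the 4 members, 12 other miRNAs reported to act in the oligodendrocyte lineage were followed, and all 12 were tested. None was called, against 1.3% of all miRNAs, and 8 were lower and 4 higher in ko, with a median log2 fold change of −0.13. Of all miRNAs 59.4% were lower in ko, and 36.7% after median centring, so such a count depends on the scaling. miR-32-5p, described in myelin lipid metabolism, had 236 ± 47.3 CPM (het) and 105 ± 56.7 CPM (ko; log2 fold change −1.30, SE 0.39, limma adjusted p = 0.209), and it was the only one of the 12 whose het (195 to 285 CPM) and ko (44.1 to 181 CPM) libraries did not overlap, as was the case for 3.46% of all miRNAs. miR-138-5p, which favours early differentiation and is also abundant in neurons, had 8995 ± 1206 CPM (het) and 5946 ± 1437 CPM (ko; log2 fold change −0.61, SE 0.24, limma adjusted p = 0.529). These were the 2 of 12 with an unadjusted p under 0.05, where 7.34% of all miRNAs had one. miR-17-5p, miR-19b-3p, miR-20a-5p and miR-92a-3p, from a cluster known for keeping precursors dividing, are among the other 10, which had log2 fold changes between −0.42 and 0.44.

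**Figure D5:**
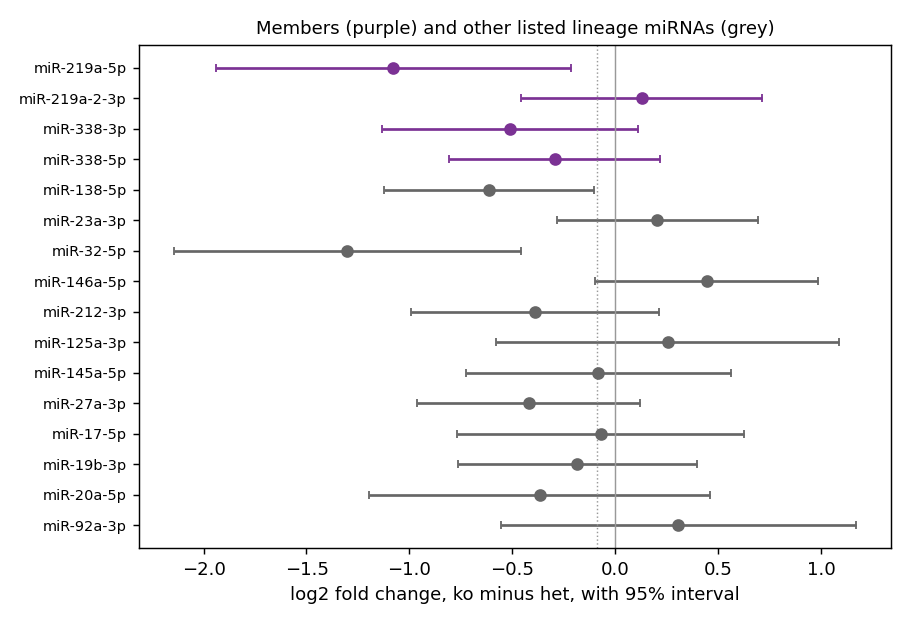
Log2 fold change (ko minus het) with its 95% interval for the 4 members (purple) and 12 other miRNAs of the oligodendrocyte lineage (grey), with a solid line at 0 and a dotted line at the median of all 463 miRNAs (−0.09). The intervals of miR-219a-5p, miR-138-5p and miR-32-5p lie below 0, and none of these miRNAs passed after adjustment.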

How the data were processed

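RNA bound to Argonaute proteins was sequenced from 8 mice, 4 of each genotype, and genotype and replicate number came from the sample titles. The authors made the table with their SPOROS pipeline, and per the labels' processing notes Trim Galore was used. Its version and the genome build are not given in the sources used here. The deposited values are CPM of each distinct read, scaled by the authors to 1000000 reads per library. Columns summed to 98.4% to 99.8% of that, and each sequence had at least 8 reads in all, so rare forms in shallow libraries are the more easily missed. A deposited column with the summed signal of the 8 libraries, made by the authors, was not used here. The deposited seed viability score is the authors' value from an earlier screen. Dividing by the value of 1 read gave whole reads for 100% of values (within 0.1 read), and hence the depth. As a value is a share of its library, a change in abundant miRNAs moves the others. The sources used here describe no molecular identifiers, and the intervals cover counting error only.

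CPM were summed per miRNA name. Every miRNA or read whose mean reached 10 CPM entered a fit of log2(CPM + 1) by limma 3.58.1 (R 4.3.3, trended and robust variance), without covariates, with Benjamini-Hochberg adjustment at 0.05. Fold changes are on that scale. Ratios and isoforms were compared by exact permutation over 70 splits (smallest p 0.0286), and correlations by exact permutation of pairings. Functions were tested on simulated data, in which limma recovered 100% of 200 miRNAs changed by a log2 fold change of 2 among 463. These changes were larger than those of the members, so the simulation does not show whether changes of the members' size could be found. Alternatives were a pseudocount of 0.1 or 10, a lowest mean of 1 or 100 CPM, median centring of libraries, main-seed reads only, edgeR 4.0.16 and DESeq2 1.42.0 on recovered reads (which called 4 and 9 miRNAs), the replicate block, leaving out libraries and, chosen after seeing the data, GC trend removal (lowess, statsmodels 0.14.6), main-seed reads for the lineage list, and leaving out the most abundant miR-219a-5p read. Other steps used Python 3.11.15, numpy 2.4.6, pandas 2.3.3, scipy 1.17.1 and matplotlib 3.10.9.

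The named miRNAs are the 4 members, 12 further miRNAs of the lineage, cell type markers and the 3 nearest neighbours of each member. The members and lists were chosen with earlier results of these data known. Hairpins were taken from RefSeq and gene annotation from GENCODE, both on GRCm38.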

Additional observations from a re-analysis of the deposited data

Results flagged for a closer look

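In a check of 54 groups of 4 libraries for a single library far from the others, 3 were marked, and chance marks about 1 in 20 groups. The mean read length of miR-338-3p was 22.5 nt in ko library 4, where the next ko library had 21.7 nt. The level of miR-138-5p was 8096 CPM in ko library 2, where the next ko library had 5334 CPM. The level of miR-92a-3p, a member of the miR-17 to miR-92 cluster, was 2322 CPM in ko library 3, where the next ko library had 753 CPM.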

How the results depend on the processing

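The limits are 4 mice a genotype, unequal depth and CPM that are shares of a library. Without the 2 libraries over 5000000 reads, member reads called rose from 0 to 1. With each library's GC trend removed, chosen after seeing the data, pairs with a correlation past the threshold rose from 0 to 1. This pair was the miR-219a arms, which ran in opposite directions (r = −0.88). The correlation of miR-219a-5p and miR-338-5p turned to −0.0916 with genotype means removed and to −0.0452 with the GC trend removed, and that of miR-219a-2-3p and miR-338-3p to −0.1172 with the GC trend removed and −0.0076 without the 2 deep libraries. Without those the other-seed share (ko minus het, percentage points) was −0.0518 for miR-219a-2-3p and 0.5268 for miR-338-3p, and the mean read length of miR-338-3p differed by 0.2385 nt. With only reads of at least 10 CPM, the other-seed share of miR-338-5p differed by 1.6202, and no other-seed read of miR-219a-2-3p was left. The causes were not tested.

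Leaving out each library in turn called no member, member read, pair or lineage miRNA. No ratio or isoform measure passed either, but with so few mice a single one could not have. It gave log2 fold changes of −0.0136 to 0.2899 for miR-219a-2-3p, the lowest without ko replicate 3. Correlations ranged from −0.1144 to 0.54 (miR-219a-5p and miR-338-5p), −0.4692 to 0.5657 (miR-219a-2-3p and miR-338-3p) and −0.3254 to 0.4636 (miR-219a-2-3p and miR-338-5p). Differences in mean read length ranged from −0.1347 to 0.0466 nt for miR-219a-5p and −0.2452 to 0.0726 nt for miR-338-3p. Those in other-seed share ranged from −0.2049 to 0.4163 (miR-219a-2-3p), −0.7271 to 0.2786 (miR-338-3p) and −2.1729 to 1.0215 percentage points (miR-338-5p).

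Libraries of the same number in both genotypes deviated together with correlations of −0.18 to 0.29, above 0.1 in 2 of 4 pairs and not always highest with the own number, which was not enough to treat the numbers as pairs, and whether libraries of 1 number share a preparation is not in the labels. With the replicate block limma called 10 of 463 miRNAs instead of 6, and 0 of 4 members, with miR-219a-5p at −1.08 (adjusted p = 0.0617).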
